A study of Mus musculus with 2 samples.

Results

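The Rab GTPase genes of the mouse are described here in a pull-down of miRNA-bound mRNA. A gene was taken as a member if its symbol was Rab followed by a number and at most a letter and a digit, which gave 57 of the 22609 genes in the deposited tables. Of these, 47 had at least 20 reads over both libraries and were compared, out of 12186 genes that passed the same minimum. The 57 were placed by their main compartment into early endosome (8 genes), late endosome and lysosome (10), recycling (9) and secretory Rabs (24). The other 6 were placed in none of these routes. Many Rabs act at more than 1 site, so the placement is a simplification.

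Rab GTPases are small membrane-bound switches of the Ras superfamily. In the GTP-bound form each Rab marks a particular membrane and recruits the tethers, motors and lipid kinases that move or fuse vesicles there, and a Rab cascade from Rab5 to Rab7 carries a phagosome from an early to a late, degradative state. Sertoli cells, the nurse cells of the seminiferous tubule, use this route to clear apoptotic germ cells. The study found the Rab5 and Rab7 proteins on their phagosomes. It also reported lower levels of both proteins in mice carrying a transgene for the miRNA studied here, and stated that the miRNA targets them. The values below are of miRNA-bound mRNA in a cell line, so that claim about protein was not tested.

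Both samples were Ago2 immunoprecipitates (IP) from TM4, an established mouse Sertoli cell line, taken 48 h after transfection. The cells of one library received a miR-471-5p mimic, a synthetic RNA that acts as the mature miRNA, and those of the other received a scramble RNA. Ago2 is the protein that carries miRNAs to their target mRNAs. Each condition had 1 library, so the spread between replicates is unknown, no difference has a replicate check and no test was made. RNA from before the pull-down was not analysed here. More mRNA in the cell and more of it bound to Ago2 therefore cannot be told apart, and neither can fewer expressing cells and less RNA per cell. Reads below are given for the mimic library first.

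The mimic library held 18628310 reads on genes and the scramble library 18717225. Sertoli transcription factor genes were present, with 1228 and 1070 reads for Sox9 and 341 and 365 for Gata4. Clu had 217 and 163 reads and Wt1 73 and 35. Other Sertoli genes were near or at 0, with 5 reads in each library for Amh, at most 5 for Cldn11, Dhh and Dmrt1, and 0 in both for Fshr. Among markers of other testis cells the highest was Acta2, the smooth muscle actin of peritubular cells, with 73076 and 101778 reads, while Myh11 of the same cells had 6 in each. Of the germ cell genes Ddx4 had 46 and 74 reads and Sycp3 58 and 48, and Star of Leydig cells had 60 and 69. The macrophage genes Emr1 and Ptprc had 0 in both, and Csf1r had 18 and 25 and Cd68 8 and 9. Whether the difference in Acta2 bears on the Rab values was not tested.

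The miRNA and its matches in Rab 3′-UTRs, where miRNA sites are usually sought, are shown first. The mature miRNA is printed from the RefSeq annotation of GRCm38.p6, where it lies at chrX:66792634-66792655 on the minus strand, with the seed, bases 2 to 8, in capitals.

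mmu-miR-471-5p: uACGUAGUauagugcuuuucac

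A match to the whole seed, called 7mer-m8, reads ACTACGT in the mRNA, and the shorter 6mer match to bases 2 to 7 reads CTACGT. The longest 3′-UTR of each gene in GENCODE M21 was searched on the mRNA strand. All 57 Rab genes had a 3′-UTR, and 2 of them, Rab20 and Rab17, held a 7mer-m8 match. Rab5b and Rab2b held a 6mer match, and none of the 57 held a match to the seed followed by A (8mer). The sites are shown as the mRNA sense strand, with the matched bases in capitals.

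Rab20: gactctgcagtcACTACGTcctg

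Rab17: ccagcccaagctACTACGTcttt

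Rab5b: tctctggcctctCTACGTccta

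Rab2b: ttcttagcattcCTACGTtatc

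In GRCm38 these windows lie at chr8:11453705-11453727 for Rab20, chr1:90958801-90958823 for Rab17, chr10:128677961-128677982 for Rab5b and chr14:52262333-52262354 for Rab2b, all on the minus strand. The matches begin at base 282 of 479 in the 3′-UTR of Rab20 and at base 73 of 751 in that of Rab17. Among all tested genes with a 3′-UTR, 183 of 11756 (1.56%) carried a 7mer-m8 match and 796 (6.77%) a 6mer match. Of the 47 Rabs compared, 1 carried the first and 3 the second. In coding regions 0 of them held a 7mer-m8 match, against 4.34% of tested genes. A 6mer match lay in the coding region of 4, Rab28, Rab32, Rab35 and Rab36, against 16.3% of tested genes. In Rab35 that match was followed by A (7mer-A1), which 1.93% of tested genes held in the coding region. Rab17 also had a 6mer match in its coding region.

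Rab20, a Rab of endosomes and maturing phagosomes, had 57 reads with the mimic and 31 with scramble RNA. Its log2 ratio of mimic to scramble was 0.88, the highest of the 47 Rabs compared and at percentile 94.6 of all tested genes. With so few reads the exact 95% interval ran from 0.22 to 1.56, and like all intervals here it covers counting error only. Rab17, an endosomal Rab of epithelial cells, had 7 reads with the mimic and 0 with scramble RNA, where a count of 0 allows up to 0.160 CPM (reads scaled to the library total), so no ratio was computed. Both Rabs with a 7mer-m8 match thus had more reads in the mimic library, on 88 and 7 reads in all. Of the 47 Rabs compared, 23 had a log2 ratio above 0, and among these only Rab20 had such a match. Whether the match bears on the reads was not tested. The pair with only a 6mer match lay on either side of 0, at -0.23 for Rab5b and 0.20 for Rab2b. The 183 tested genes with a 7mer-m8 match had a median log2 ratio of -0.01, against 0.00 over all tested genes. For other 3′-UTR matches the median was 0.14 with an 8mer (47 genes), -0.01 with a 7mer-A1 (171) and -0.09 with a 6mer (796). For coding matches it was 0.10 with an 8mer (52 genes), -0.03 with a 7mer-m8, 0.01 with a 7mer-A1 and -0.04 with a 6mer. These medians are not corrected for length, and over all genes the ratio fell with 3′-UTR length (Pearson's r -0.27). Whether genes with a match differ once length is allowed for was not tested.

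Rab reads made up 0.413% of the mimic library and 0.408% of the scramble library, 76906 and 76334 reads over the 57 genes. The family as a whole therefore stood level, with a log2 ratio of summed reads of 0.010 (95% interval -0.004 to 0.025). The median log2 ratio of the 47 Rabs was 0.00 on TMM-scaled counts, as was that of all tested genes, and the ratios ran from -0.64 in Rab40b to 0.88 in Rab20. Their SD was 0.314, against 0.588 over all tested genes. The 2 values are not on equal terms, since the median Rab had 2058 reads over both libraries and the median tested gene 1278.

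A difference of at least 1.5-fold was taken as the rule of size. By it 3 of 47 Rabs (6.38%) were higher in the mimic library, against 11.7% of all tested genes, and 1 (2.13%) was lower, against 9.11%. At 2-fold there were 0 Rabs in either direction, against 3.96% of tested genes higher and 3.08% lower. Counting error alone left 15 Rabs (31.9%) with an interval wholly above 0 and 14 (29.8%) wholly below it. Over all tested genes the shares were 31.5% and 32.5%. The remaining 18 Rabs had intervals that included 0.

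**Figure D1:**
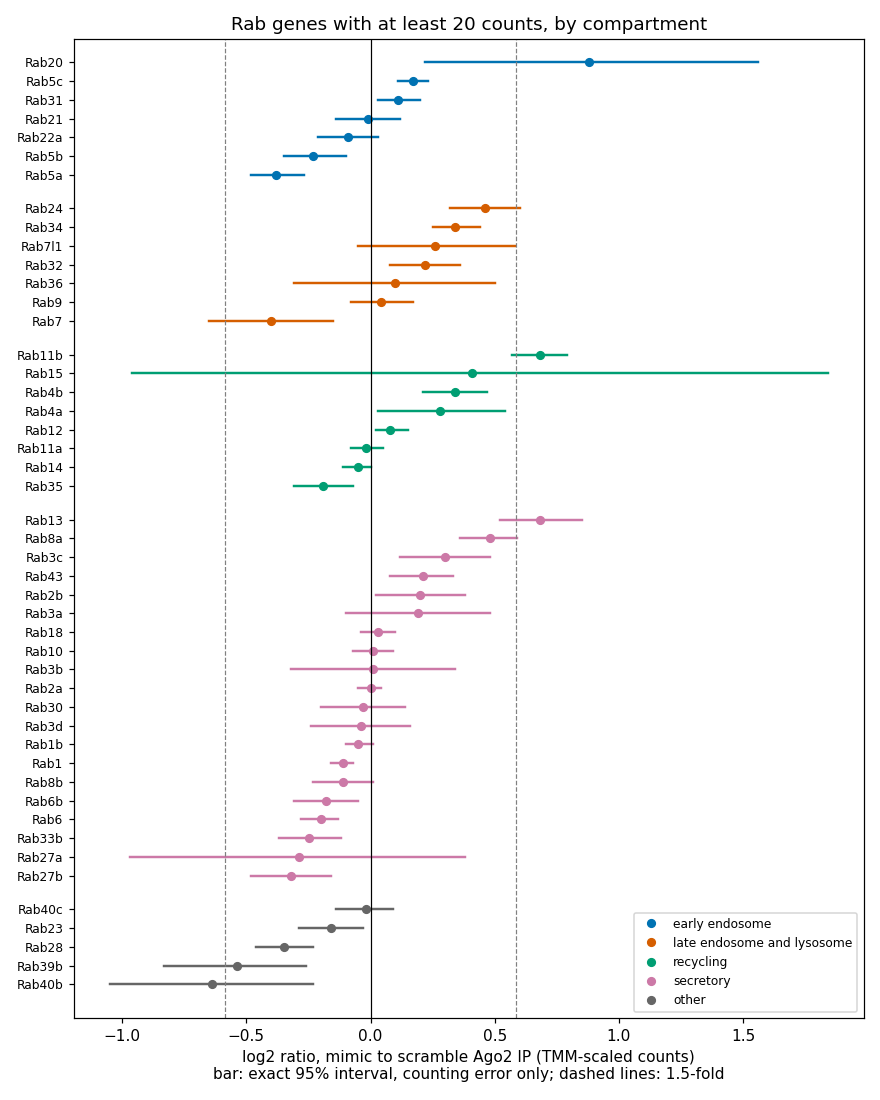
Log2 ratio of mimic to scramble for the 47 Rab genes compared, grouped by compartment, with TMM-scaled counts on the x axis and exact 95% intervals for counting error as bars. Rab20, Rab11b and Rab13 lie beyond the right dashed line and Rab40b beyond the left one, at 1.5-fold, while Rab5a and Rab7 lie left of 0.

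Early endosome Rabs included both signs, and among the 3 Rab5 paralogs Rab5c stood apart from Rab5a and Rab5b. Rab5a, which drives early endosome fusion, had 1347 reads with the mimic against 1750 with scramble RNA, giving a log2 ratio of -0.38 (-0.48 to -0.27). Its closest relatives were Rab5b, with 948 and 1110 reads and a log2 ratio of -0.23 (-0.35 to -0.10), and Rab5c, with 4543 and 4044 reads and a log2 ratio of 0.17 (0.11 to 0.23). So Rab5a and Rab5b had fewer reads in the mimic library, and the most abundant paralog, Rab5c, had more. When a trend of the log2 ratio with transcript length and GC content, fitted over all tested genes, was subtracted, Rab5a stood at -0.40 and Rab5b at -0.18, but Rab5c at -0.01.

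Since library scaling cancels between 2 genes of the same libraries, the paralogs were also compared directly. The ratio of mimic to scramble of Rab5a was 0.685 times that of Rab5c, -0.55 on the log2 scale (95% interval -0.67 to -0.42). Rab5b differed from Rab5c by -0.40 (-0.54 to -0.25). Between Rab5a and Rab5b the difference of -0.15 had an interval that included 0 (-0.31 to 0.01). Summed over the 3 genes, reads were 6838 with the mimic against 6904 with scramble RNA, giving a log2 ratio of -0.014 (-0.063 to 0.034). Of these reads Rab5a took 19.7% in the mimic library (exact binomial interval 18.8 to 20.7%) and 25.3% in the scramble library (24.3 to 26.4%). Rab5c took 66.4% (65.3 to 67.6%) and 58.6% (57.4 to 59.7%).

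Except for Rab20, the other early endosome Rabs with 20 or more reads were closer to 0. Rab31, which also serves the trans-Golgi, had 2324 and 2147 reads and a log2 ratio of 0.11 (0.03 to 0.20). Rab21, a Rab of integrin traffic, had 953 and 961 reads, and Rab22a, which sorts cargo into recycling tubules, had 1078 and 1148. Their log2 ratios of -0.01 and -0.09 had intervals that included 0. With the length and GC trend subtracted, Rab31, Rab21 and Rab22a stood at 0.19, 0.19 and 0.21. They were then not closer to 0 than Rab5b and Rab5c, at -0.18 and -0.01. The 8 early endosome genes summed to 11257 and 11191 reads, a log2 ratio of 0.008 (-0.030 to 0.046).

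Per transcript length the early endosome Rabs were ordered much the same in both libraries. Rab5c stood at 124 and 110 RPKM, which are reads scaled to the longest coding transcript and to the library total. Rab5a followed in the scramble library, with 39.5 RPKM against 30.6 in the mimic library, and Rab31, at 33.0 against 35.9, passed it in the mimic library. Rab20 was lowest of those compared, with 2.20 RPKM with the mimic and 1.19 with scramble RNA. An RPKM value is too low where the cells use a shorter transcript than the longest one annotated.

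Of the 7 late endosome and lysosome Rabs compared, 3 were higher and Rab7 was lower beyond counting error. By the same rule 31.5% of all tested genes were higher and 32.5% lower. Rab7, which drives fusion of late endosomes and phagosomes with lysosomes, had 234 reads with the mimic against 308 with scramble RNA, giving a log2 ratio of -0.40 (-0.65 to -0.15). It lay at percentile 17.0 of all tested genes. Rab7 was lower by 1.32-fold, and like Rab5a it did not reach 1.5-fold. In GRCm38 the Rab7 gene lies at chr6:87999106-88045270 on the minus strand and Rab5a at chr17:53479234-53507680 on the plus strand.

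Rab24, Rab34 and Rab32 were the higher ones. Rab24, linked to autophagic compartments, had 946 and 687 reads and a log2 ratio of 0.46 (0.32 to 0.60). Rab34, which positions lysosomes from the Golgi, had 2012 and 1587 reads and 0.34 (0.25 to 0.44). Rab32, a Rab of lysosome-related organelles, had 965 and 828 reads and 0.22 (0.08 to 0.36). For Rab7l1 (now Rab29), Rab36 and Rab9 the ratios were 0.26, 0.10 and 0.04, with intervals that included 0. Rab9 retrieves receptors from late endosomes to the Golgi, and its reads were 1106 and 1072. With the length and GC trend subtracted, Rab24 and Rab34 stood at 0.04 and 0.05 and Rab32 at 0.14, while Rab9, Rab7l1 and Rab7 stood at -0.18, -0.07 and -0.49. Summed over the 10 genes, reads were 5558 and 4740, a log2 ratio of 0.229 (0.173 to 0.285). The median of the group was 0.22, but it was -0.18 when Rabs that act in more than 1 compartment were left out, which kept only Rab7 and Rab9.

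Counts of some of these genes are uncertain, because a read that aligned to more than 1 place was not assigned to a gene. Of the 50-base stretches of the longest Rab7 transcript, 14.5% also occurred in the pseudogene Rab7-ps1. The corresponding shares at other loci were 13.0% for Rab5b, 9.77% for Rab11b, 7.87% for Rab9, 1.64% for Rab5a and 0 for Rab5c. Rab7 reads may thus be undercounted in both libraries, and its level of 5.82 RPKM with the mimic and 7.62 with scramble RNA may be too low. Rab24 overlaps Prelid1 over 43.5% of such stretches, and Prelid1 had 1882 reads with the mimic and 1286 with scramble RNA. The strand setting of the counting is not stated, so reads of these 2 genes may not have been told apart. The same limit holds for Rab7, which overlaps Gm5577 over 7.68% of its stretches, and for Rab5a, which overlaps 4921523A10Rik over 7.42%. Gm5577 had 12 reads with the mimic and 13 with scramble RNA, and 4921523A10Rik had 1 and 3.

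**Figure D2:**
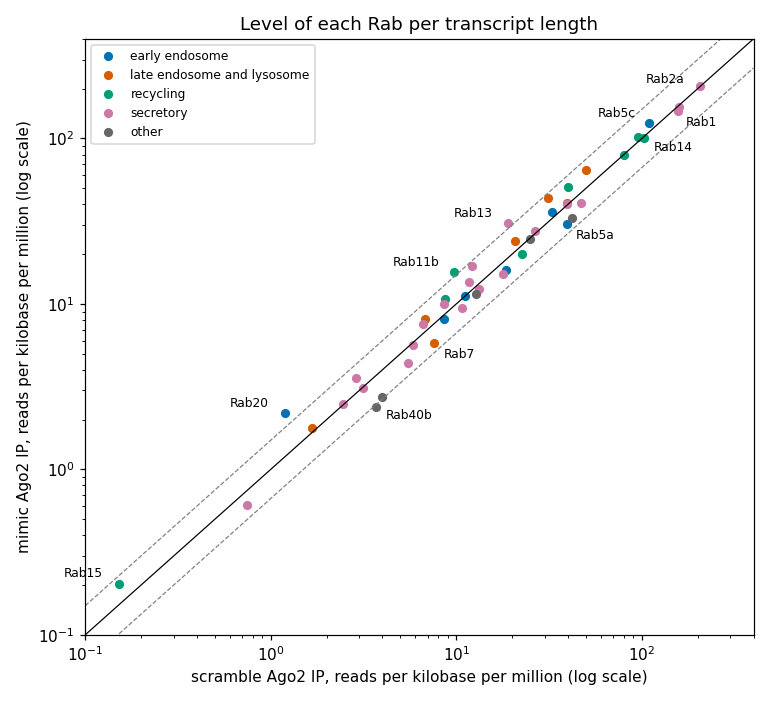
Level of the 47 Rab genes in the mimic library against the scramble library, in RPKM over the longest coding transcript, both axes on a log scale, with the solid line at equality and dashed lines at 1.5-fold. The points span from Rab15, at 0.204 and 0.152, to Rab2a, at 208 and 207, and 4 lie outside the dashed lines.

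Recycling Rabs held one of the 3 genes past 1.5-fold. Rab11b, which acts in slow recycling through the recycling endosome, had 1774 reads with the mimic against 1108 with scramble RNA, giving a log2 ratio of 0.68 (0.57 to 0.79). Its paralog Rab11a had 3460 and 3498 reads and a log2 ratio of -0.02 (-0.08 to 0.05). The ratio of Rab11a was 0.618 times that of Rab11b, -0.69 on the log2 scale (-0.82 to -0.57). The interval of this difference lay below 0, so the Rab11 genes differed beyond counting error.

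Rab4a and Rab4b, of fast recycling, were also higher in the mimic library. Rab4a had 282 and 232 reads, a log2 ratio of 0.28 (0.03 to 0.54), and Rab4b had 1129 and 890, a log2 ratio of 0.34 (0.21 to 0.47). The difference between these paralogs, -0.06, had an interval from -0.35 to 0.23. Neither kept its direction with the length and GC trend subtracted, where Rab4a stood at -0.02 and Rab4b at -0.09. Rab35, another Rab of fast recycling, went the other way, with 1044 and 1193 reads and a log2 ratio of -0.19 (-0.31 to -0.07). The most abundant recycling Rabs per length changed little. Rab14 stood at 100 RPKM with the mimic and 103 with scramble RNA, Rab12 at 102 and 95.4, and Rab11a at 79.5 with the mimic. Rab15 rested on 12 and 9 reads, and its interval ran from -0.96 to 1.84.

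Secretory Rabs were the largest group and included the most abundant members. Rab2a, of traffic between the endoplasmic reticulum and Golgi, had 8275 reads with the mimic against 8284 with scramble RNA, giving a log2 ratio of 0.00 (-0.05 to 0.04). Rab1 (Rab1a) of the same step had 7717 and 8332 reads and -0.11 (-0.16 to -0.07), and Rab1b had 5526 and 5700 reads and -0.05 (-0.10 to 0.01). These 3 genes stood highest of all Rabs per length, between 147 and 208 RPKM. The log2 ratio of Rab5a, -0.38, lay outside each of their intervals, which were narrow because these genes had many reads. It lay inside the wider intervals of some other Rabs, such as Rab27b (-0.48 to -0.16) and Rab28 (-0.46 to -0.23). Rab5a was therefore not set apart from all other Rabs.

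The Golgi Rabs Rab6 and Rab6b were lower by nearly the same amount. Rab6 had 2447 and 2817 reads, a log2 ratio of -0.20 (-0.28 to -0.13), and Rab6b had 886 and 1005, a log2 ratio of -0.18 (-0.31 to -0.05). Rab33b, which also acts in autophagosome formation, was lower too, with 987 and 1170 reads and -0.25 (-0.37 to -0.12). In contrast, Rab43 had 1168 and 1012 reads and 0.21 (0.08 to 0.33). With the length and GC trend subtracted, Rab6 and Rab33b stood at -0.13 and -0.15, Rab6b at -0.01 and Rab43 at 0.30. Rab6 overlaps Mrpl48 over 20.8% of its 50-base stretches, and Mrpl48 had 156 and 120 reads.

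Among the secretory Rabs compared, the largest log2 ratios were those of Rab13 and Rab8a, which serve the last step to the plasma membrane. Rab13, which carries cargo to tight junctions, had 813 reads with the mimic against 506 with scramble RNA, giving a log2 ratio of 0.68 (0.52 to 0.85). Rab8a, which serves exocytosis and cilia, had 1440 and 1035 reads and 0.48 (0.36 to 0.59). Its paralog Rab8b had 1084 and 1172 reads and -0.11 (-0.23 to 0.01). The difference between them was 0.59 on the log2 scale (0.42 to 0.76). Rab10, the third Rab of this branch, stood level with 2627 and 2612 reads.

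Rabs of regulated secretion had fewer reads. Of the 4 Rab3 genes, Rab3c had 561 and 456 reads and a log2 ratio of 0.30 (0.12 to 0.48), and the intervals of Rab3a, Rab3b and Rab3d included 0. Rab27b had 568 and 707 reads and -0.32 (-0.48 to -0.16), but stood at 0.01 with the length and GC trend subtracted. Its paralog Rab27a had 36 and 44 reads, and an interval from -0.97 to 0.38. The 24 secretory genes summed to 39352 and 39909 reads, a log2 ratio of -0.021 (-0.041 to -0.001). Of the 20 compared, 5 lay above 0 and 5 below it beyond counting error, against 31.5% and 32.5% of all tested genes.

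**Figure D3:**
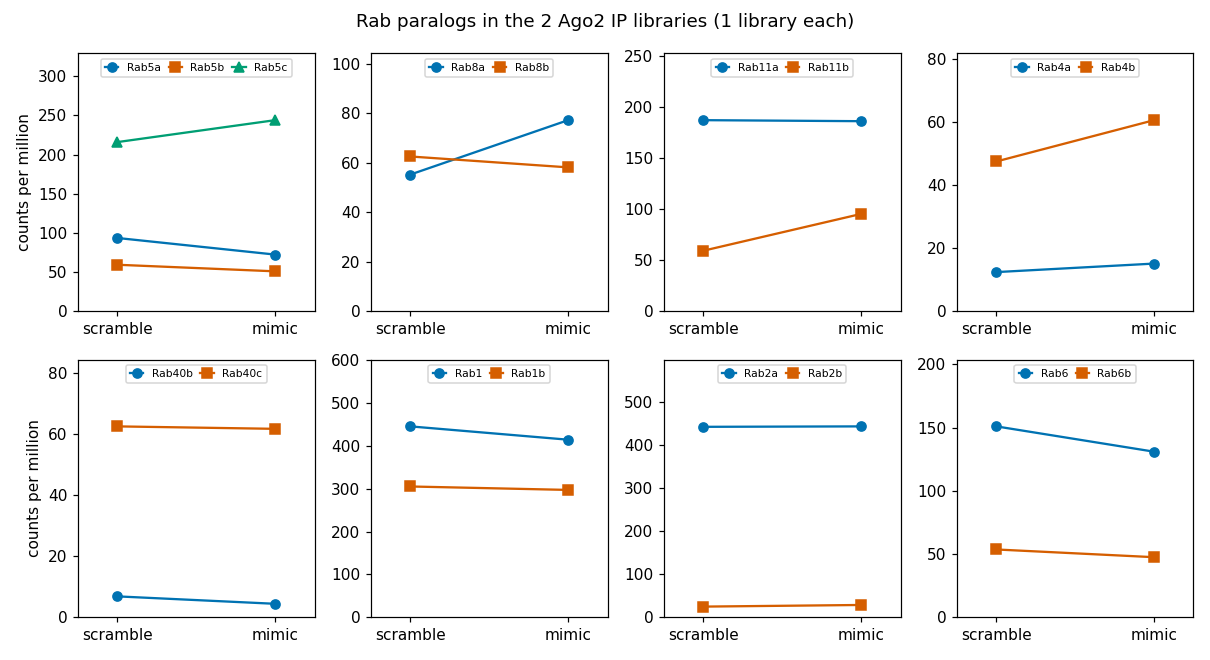
CPM of 8 Rab paralog families in the scramble and mimic libraries, 1 line per gene, with each y axis starting at 0. The lines of Rab5c and Rab5a, and of Rab8a and Rab8b, slope in opposite directions, and Rab11b goes from 59.2 to 95.2 while Rab11a stays at 187 and 186.

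Of the 17 pairs of paralogs within 10 families with the same Rab number, 7 had a ratio that differed beyond counting error. Pairs of other genes were not counted, so this share says nothing particular of paralogs. Besides the Rab5, Rab8 and Rab11 pairs already given, these were Rab40b against Rab40c at -0.61 (-1.05 to -0.19), Rab3c against Rab3d at 0.34 (0.07 to 0.61) and Rab2a against Rab2b at -0.20 (-0.39 to -0.01). In the other pairs the interval of the difference included 0, which does not show that the 2 genes moved alike.

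The 5 compared Rabs placed outside the 4 routes all had log2 ratios below 0. Rab40b, a Rab with a SOCS box that serves a ubiquitin ligase, had 83 and 129 reads and a log2 ratio of -0.64 (-1.05 to -0.23), the only one lower by at least 1.5-fold. Rab39b, a neuronal Golgi Rab that was not placed with the other Golgi Rabs, had 174 and 253 reads and -0.54 (-0.83 to -0.26). Rab28 of the cilium had 1045 and 1327 reads and -0.35 (-0.46 to -0.23), and Rab23, which acts in cilia and hedgehog signalling, had 928 and 1034 reads and -0.16 (-0.29 to -0.03). Rab40c stood level, with 1152 and 1171 reads and an interval from -0.14 to 0.09. With the length and GC trend subtracted, Rab23 stood at 0.00, Rab40c at -0.13, Rab39b at -0.43 and Rab28 at -0.51.

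Members under 20 reads were Rab33a with 8 and 4 reads, Rab17 with 7 and 0, Rab19 and Rab37 with 4 and 1 each, Rab25 with 1 and 1, and Rab39 with 0 and 1. Rab26, Rab38, Rab44 and Rab9b had 0 reads in both libraries. Rab25 and Rab17 are known from epithelia, and Rab26 and Rab37 from secretory granules.

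Among the 47 Rabs the log2 ratio went with the GC content of the transcript. Across genes, which are not independent replicates, Pearson's r was 0.45 and Spearman's rho 0.46, against 0.18 and 0.22 over 11772 tested genes. With the length of the transcript r was -0.22 for the Rabs and -0.39 for all genes. The 13 Rabs above 53.4% GC had a median log2 ratio of 0.21, with 10 of them above 0. The 20 Rabs up to 47.0% GC had a median of -0.08, with 5 above 0. Medians of all genes over the same ranges of GC were 0.12 and -0.11, with 2421 of 3924 and 1538 of 3924 genes above 0. Of the Rab5 genes, Rab5c had 54.7% GC and Rab5a 42.3%.

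**Figure D4:**
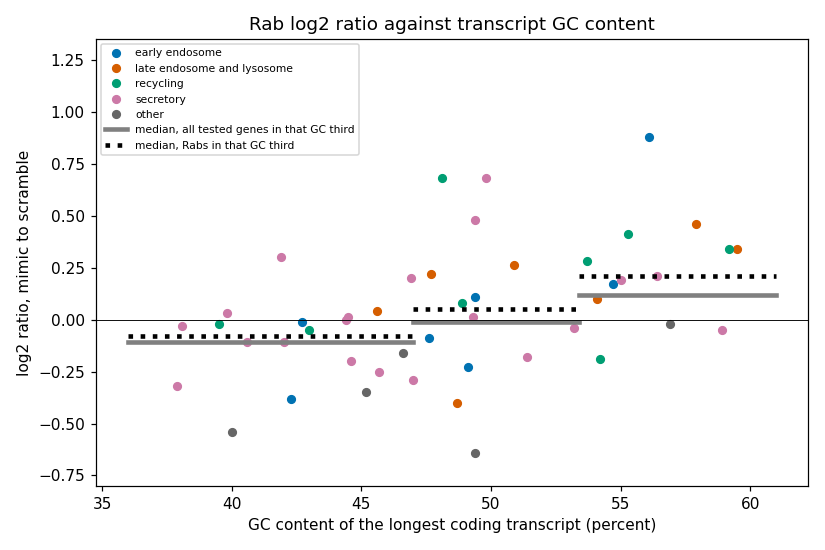
Log2 ratio of mimic to scramble of the 47 Rab genes against the GC content of the longest coding transcript, colored by compartment, with lines at the median of all tested genes and of the Rabs in 3 ranges of GC. The Rab medians go from -0.08 to 0.05 to 0.21 as GC content increases.

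The trend with transcript length and GC content moved single Rabs both toward and away from 0. Besides the Rabs given above, Rab11b stood at 0.93 once it was subtracted. Rab18 and Rab30, at 0.03 and -0.03 before, stood at 0.34 and 0.37. Rab13 and Rab20 at 0.42 and 0.55 were no longer past 1.5-fold, while Rab3c and Rab8a at 0.67 and 0.63 were. So 3 Rabs were past 1.5-fold with and without this step, with 1 in common, and Rab40b, at -0.79, was the 1 lower Rab in both.

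Genes that load, activate or read Rabs were listed by the Rab they serve, 118 genes in all, of which 107 were compared. By the 1.5-fold rule 2 were higher and 6 lower, both smaller shares than the 11.7% and 9.11% of all tested genes. With counting error alone 18.7% had an interval wholly above 0, against 31.5% of all tested genes, and 45.8% wholly below it, against 32.5%. Their median log2 ratio was -0.11. The median transcript length was 4303 bases, against 3192 over all tested genes, and with the trend subtracted the median was -0.03.

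Over all tested genes, 6100 of 12186 had a log2 ratio below 0. The values of each list below are without the length and GC trend subtracted. Activators and effectors of Rab5 had a median log2 ratio of -0.16, with 14 of 18 below 0 and 1 lower by at least 1.5-fold. Those of Rab7, with the HOPS tether and retromer among them, had a median of 0.00, with 9 of 18 below 0 and 0 past 1.5-fold. Those of Rab4 and Rab11 had a median of -0.12, with 8 of 13 below 0. For secretory Rabs the median was -0.16, with 13 of 17 below 0 and 3 lower by at least 1.5-fold. Rab GTPase-activating proteins also had a median of -0.16, with 19 of 33 below 0, 1 higher and 2 lower by at least 1.5-fold. The 8 chaperones and prenylation genes had a median of 0.00, with 1 higher.

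Of these genes 1 was higher and 3 were lower by at least 2-fold, where 3.96% and 3.08% of all tested genes were. Rabac1, the prenylated Rab acceptor of the Golgi, had 1289 reads with the mimic against 619 with scramble RNA, giving a log2 ratio of 1.06 (0.92 to 1.20). Tbc1d20, a GTPase-activating protein for Rab1, had 656 and 1316 reads and -1.01 (-1.14 to -0.87). Bicd1, which links Rab6 vesicles to dynein, had 21 and 54 reads and -1.36 (-2.16 to -0.61), and Sytl5, a Rab27 effector, had 8 and 16 reads and an interval from -2.43 to 0.31. By the log2 ratio alone, Rabac1 and Tbc1d20 thus lay farther from 0 than any of the 47 Rabs compared. The interval of Rab20 (0.22 to 1.56) included differences of that size.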

How the data were processed

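Ago2 IP RNA from TM4 cells was sequenced in 1 library per condition. Tables of whole, unnormalized counts for each gene symbol were deposited. Per the labels, CASAVA 1.8.2, TopHat2 2.0.8b and HTSeq were used with genome build mm9. The annotation, strand setting and read length are not given in the sources used here. Of all entries, 47.3% (mimic) and 44.1% (scramble) lay in rows that name no gene and were left out.

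The count minimum was 20 reads over the pair of libraries. Scaling used the TMM method (edgeR 4.0.16, run in R 4.3.3), whose factors were 1.0026 for the mimic and 0.99740 for the scramble library. With 1 library per condition there are no residual degrees of freedom for a quasi-likelihood test. Log2 ratios therefore carry 95% intervals made from the exact Clopper-Pearson bounds on a gene's mimic share. These, and paralog intervals from the conditional odds ratio, cover counting error only. In fits and medians over all genes, a gene at 0 in a library was given 0.5 counts.

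Lengths, GC content, 50-base stretches and 3′-UTRs came from GENCODE M21 (GRCm38), matched by symbol or RefSeq synonym to 96.6% of tested genes and all 57 Rabs. No mm9 coordinates were used. Scripts ran in Python 3.11.15 (numpy 2.4.6, scipy 1.17.1, pandas 2.3.3) and were tested on simulated data.

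The members and lists were chosen with earlier results of these data known. Named were Rab5a, Rab7, Rabs past 1.5-fold, the 3 highest per length in each compartment, those with a seed match, and paralogs of these; other Rabs are given to complete their group. Regulators were named past 2-fold. Alternatives were total count, upper quartile and DESeq2 1.42.0 scaling, no filter or 200 counts, other fold rules, a length and GC trend, and other seed matches.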

Additional observations from a re-analysis of the deposited data

Results flagged for a closer look

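Reads that aligned to several places have a row of their own in each table. That row held 39.8% of all counted entries with the mimic and 35.6% with scramble RNA. It stood out because it enters no comparison and was higher with the mimic, in 1 library of each kind. How many of these reads belong to a Rab gene or to its pseudogene copies is not known.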

How the results depend on the processing

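Over 10 results, 50 of 67 alternatives stayed within the bounds set, 1.5 times for a count and, for a log2 ratio, the half-width of the 95% interval (0.126 for a median). The log2 ratios of Rab5a and Rab7 stayed between -0.40 and -0.36 and between -0.49 and -0.38 over the scalings and the trend subtraction. In place of 3 higher and 1 lower Rabs there were 7 and 2 with no count filter, all of the added genes having under 20 reads. A fold of 2, or an interval wholly past 1.5-fold, left 0 and 0. Counting error alone, a rule added after seeing the data, gave 15 and 14. Leaving out Rabs with at least 5% of 50-base stretches shared with other loci, also added then, left 2 and 1. With the length and GC trend subtracted, the median log2 ratio was 0.19 in place of -0.01 for early endosome Rabs, 0.04 in place of 0.22 for late endosome and lysosome Rabs, and -0.02 in place of 0.18 for recycling Rabs. Without Rabs of more than 1 compartment the last 2 were -0.18, resting on Rab7 and Rab9, and 0.31. The 3′-UTR search by 7mer-m8 found 1 compared Rab, while 0 had an 8mer, 0 a 7mer-A1 and 3 a 6mer match there, and 0 had a 7mer-m8 match in the coding region. The group medians therefore have no stable direction, and few reads limit Rab20, Rab15 and Rab40b. No paired analysis was possible because each condition has 1 library.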
